A study of Aspergillus niger with 8 samples.

Results

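A total of 163 genes of Aspergillus niger, 1.06% of the 15431 genes counted, stood at least 3 times higher after 24 h of carbon starvation than in any library of the other conditions. Members were chosen by their read counts in all 8 libraries: reads on each gene were divided by the reads on all genes of the library and multiplied by 1000000 (CPM), 5 was added, and the lower of the 2 values at 24 h of starvation had to be at least 3 times the highest of the other 6. The height of a member at 24 h therefore selected it, and is described here without a test. The cultures were of strain N402, without any further genotype or treatment in the labels. All mycelium was grown for 48 h on 1% glucose. It was then washed and kept for 24 h in medium lacking any carbon source (24 h starvation), kept for 6 h in that medium (6 h starvation), kept for 6 h with 1% ball-milled wheat straw (6 h straw), or harvested directly from glucose (glucose). Among these 8 libraries only those of 24 h starvation came from cultures harvested later than 6 h after transfer. None came from straw or glucose 24 h after transfer. The study also followed straw cultures to 24 h, by earlier RNA-Seq and by qRT-PCR, and those data were not used here. It reports that some genes raised at 24 h but not 6 h of starvation were also high after 24 h on straw. The chitinase gene chiB and the spore pigment gene brnA were among them. In the libraries used here lack of carbon and time since transfer were not separated, and the part of each in the height at 24 h was not tested. Each condition had 2 cultures, A and B. RNA came from whole mycelium, so that fewer cells of a type and less RNA per cell cannot be told apart.

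When a filamentous fungus runs out of carbon it takes up what its own older hyphae release. Hyphal walls are made of chitin, β-1,3-glucan, α-1,3-glucan and mannan, and chitinases, glucanases and mannosidases cut these polymers during autolysis and remodelling. The same cultures can begin to form conidiophores under the regulator BrlA, and spore walls are then pigmented by products of polyketide synthases and oxidases. Genes for polyketide and other secondary metabolites, and for several catabolic routes, often lie next to each other in Aspergillus genomes.

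The 24 h starvation libraries were the shallowest, with 320375 reads on genes in A and 205778 in B, and the other 6 held 358403 to 979256. Reads on genes made up 1.41 to 3.4% of all reads in a file. One read was worth 3.12 CPM in 24 h starvation A and 4.86 CPM in B, and 1.02 to 2.79 CPM elsewhere. Lower read counts at 24 h were 3 to 1832 among the members, with a median of 22, and 36 members had fewer than 10 reads in a 24 h library. Between genes, levels are compared as deposited RPKM, in which reads are divided by gene length and by all reads of a file.

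The lower 24 h value was 3.01 to 65.3 times the highest of the other 6 libraries, with a median ratio of 4.68. Among the members, 75 had a ratio of 5 or more and 21 of 10 or more. The 3 members nearest the threshold were An12g02740 (3.0121), An14g00680 (3.0068) and An02g09430 (3.0053), and the 3 genes just outside it were An07g02080 (2.9997), An16g04230 (2.9846) and An12g02760 (2.9786). A further 160 genes had ratios from 2 to 3, so the threshold cut through a continuous range. Members took 6.55 and 6.54% of reads on genes in 24 h starvation A and B. They took 0.527 and 0.409% in 6 h starvation A and B, 0.162 and 0.148% in 6 h straw A and B, and 0.18 and 0.161% in glucose A and B.

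Height at 24 h did not mean silence elsewhere. Only 8 members had no read in the other 6 libraries, and 21 had 3 reads or fewer there. The 8 unread ones, An04g09640, An16g04900, An07g00030, An02g00330, An07g09500, An11g07170, An12g10680 and An06g02210, were at least 23.2-fold to at least 97.2-fold higher at 24 h than over the sum of the other 6 libraries, with a floor of 3 reads over those 6. They were named after their values were seen. By mean CPM the next highest condition was 6 h starvation for 91 members, glucose for 39 and 6 h straw for 25. Both 6 h starvation libraries lay above all 4 straw and glucose libraries in 45 members, both glucose libraries lay above the other 4 in 17, and both straw libraries in 5. The set is thus one of genes highest at 24 h, by a margin of 3, and not one of genes read at 24 h alone.

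**Figure D1:**
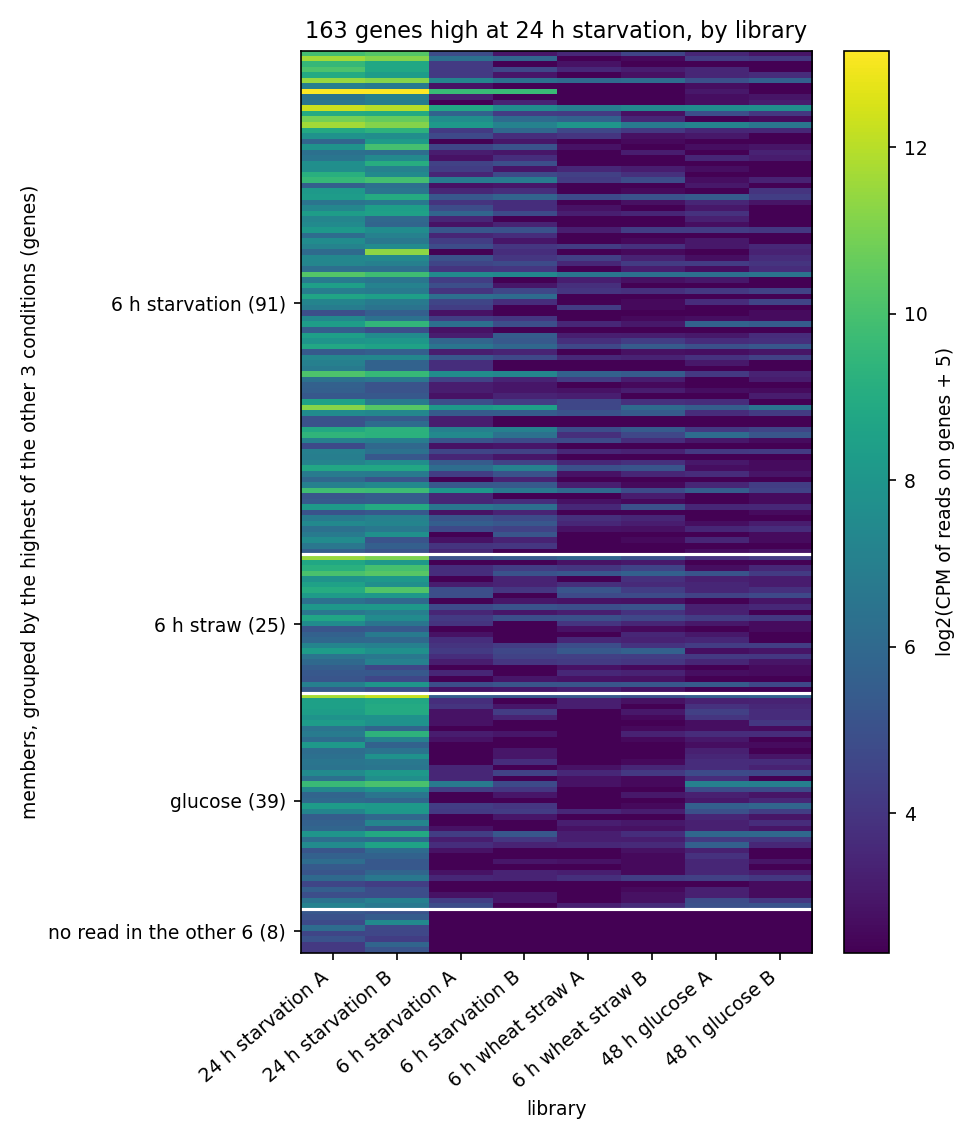
Heat map of the 163 members (one row each) in the 8 libraries, coloured by log2(CPM of reads on genes + 5) and grouped by which of the other 3 conditions had the highest mean. Both 24 h libraries stand above the rest in every row because the rule required it; 91 members were next highest at 6 h starvation, 25 on straw and 39 on glucose, and 8 had no read in the other 6.

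The chitinase gene chiB had the largest ratio. It encodes a chitinase of group A, which cuts the chitin of the hyphal wall. Its level was 3421 and 4675 CPM in 24 h starvation A and B, against 40.3 and 36.3 CPM in 6 h starvation, 35.5 and 27.6 CPM on 6 h straw and 42.5 and 47.5 CPM on glucose. The other 6 libraries differed little among themselves, and chiB was not called between any pair of the other conditions (adjusted p of edgeR's quasi-likelihood test 0.847 for 6 h starvation against glucose, 0.45 for straw against glucose and 0.663 for straw against 6 h starvation). With 52.2 ± 2.29 RPKM (SD, n = 2) at 24 h it was the member with the highest level among those that carry a name or description.

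Genes for β-glucan-cutting enzymes followed. An01g04560, a β-glucanase of the fungal wall, had 955 and 1229 CPM in 24 h starvation A and B, against 23.3 and 2.79 CPM in 6 h starvation, 6.66 and 18.4 CPM on straw and 6.29 and 2.64 CPM on glucose. The endo-β-1,3-glucanase gene engA had 2822 and 2333 CPM in 24 h starvation, against 148 and 75.3 CPM in 6 h starvation, 62.1 and 68.4 CPM on straw and 26.7 and 44.8 CPM on glucose. Both 6 h starvation values of engA lay above those of straw and glucose, and its log2 fold change of 6 h starvation against glucose was 1.74 ± 0.465 (SE, adjusted p of edgeR's quasi-likelihood test 0.00714), but the ratio of mean RPKM stayed under 3 and the gene was not called. The putative β-1,3-glucanase gene bgxB was lower, with 303 and 272 CPM in 24 h starvation, against 25.4 and 0 CPM in 6 h starvation, 22.2 and 22.5 CPM on straw and 17.3 and 21.1 CPM on glucose. The putative β-1,3-glucanotransferase gene bgtD, of the enzymes that rearrange this polymer, was read only 10 and 7 times at 24 h and at most once in any other library.

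Enzymes of the other wall polymers were among the members too. The endo-α-1,3-glucanase gene angB had 587 and 991 CPM in 24 h starvation A and B, against 8.48 and 14 CPM in 6 h starvation, 11.1 and 17.4 CPM on straw and 1.57 and 6.59 CPM on glucose. A second putative endo-α-1,3-glucanase gene, agnE, had 68.7 and 82.6 CPM in 24 h starvation, against 0 and 2.79 CPM in 6 h starvation, 0 CPM in both straw libraries and 4.72 and 0 CPM on glucose. A putative α-mannosidase gene, An14g04240, had 353 and 437 CPM in 24 h starvation, against 8.48 and 0 CPM in 6 h starvation, 4.44 and 2.04 CPM on straw and 4.72 and 5.27 CPM on glucose. None of these 3 genes, nor An01g04560, bgxB or bgtD, was called between any pair of the other conditions. An16g09040, a predicted N-acetylglucosamine-6-phosphate deacetylase, belongs to the route by which the sugar of chitin is used. It had 231 and 272 CPM in 24 h starvation, against 0 and 5.58 CPM in 6 h starvation, 0 and 9.19 CPM on straw and 4.72 and 3.96 CPM on glucose.

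Of 33 fungal wall genes taken from the study's tables, 8 were members. The study drew up those tables with these libraries in view, so their share is not independent evidence. The 8 members together had 8540 and 10055 CPM in 24 h starvation A and B, against 254 and 131 CPM in 6 h starvation, 144 and 157 CPM on straw and 104 and 129 CPM on glucose. The other 25 summed to 10038 and 8490 CPM in 24 h starvation, against 5243 and 4227 CPM in 6 h starvation, 3614 and 3583 CPM on straw and 744 and 833 CPM on glucose. None of the 8 members was called for 6 h starvation against glucose by edgeR or by DESeq2, with 2 at an unadjusted p under 0.05 in edgeR, and their log2 fold changes had a median of −0.06. Of the 22 others that could be tested, 12 were called higher and 0 lower by edgeR (18 at an unadjusted p under 0.05, and 12 called by DESeq2), and the median was 2.97. Of all tested genes 9.36% were called higher and 15% lower in this comparison. The rule requires low 6 h values of its members, so the gap between these counts was set by the choice of members and nothing is read from it. For straw against glucose, 0 of the 8 members were called by either tool (2 at an unadjusted p under 0.05 in edgeR). Of the other 22 genes 11 were higher and 1, the α-glucan synthase gene agsD, was lower. Of all tested genes 10.8% were higher and 11.2% lower. The choice of members shaped this gap too, and nothing is read from it.

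**Figure D2:**
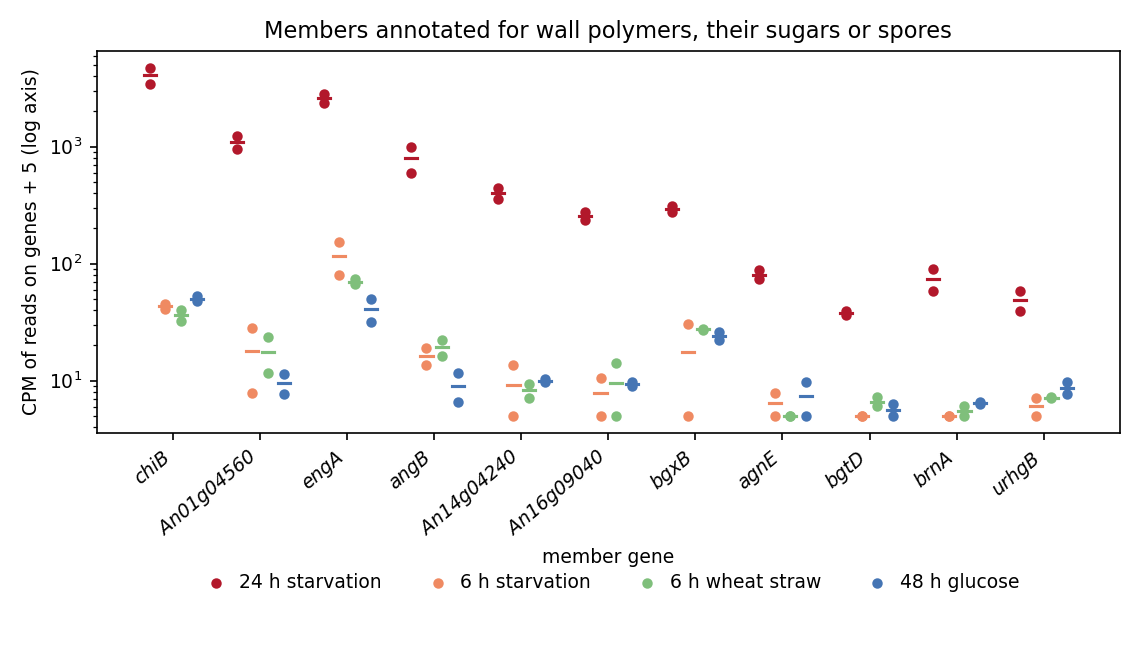
Level of 11 members annotated for wall polymers, their sugars or spores, as CPM of reads on genes plus 5 on a log axis. Points are single cultures and bars the means of 2 cultures; at 24 h starvation the genes range from bgtD (31.2 and 34 CPM) to chiB (3421 and 4675 CPM), while the other 6 libraries of each gene lie low and largely overlap.

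Genes of conidiation formed a smaller group. brnA, a putative multicopper oxidase of spore pigment formation, had 27 and 11 reads in 24 h starvation A and B, 0 in both 6 h starvation libraries, 0 and 1 on straw and 1 and 1 on glucose. urhgB, a distant relative of rhamnogalacturonyl hydrolases listed under sporulation, had 17 and 7 reads in 24 h starvation, 1 and 0 in 6 h starvation, 1 and 2 on straw and 3 and 2 on glucose. Both rest on few reads, and culture A lay above B in CPM. The regulator gene brlA was not a member, with 109 and 43.7 CPM in 24 h starvation, against 17 and 2.79 CPM in 6 h starvation, 0 CPM in both straw libraries and 1.57 and 3.96 CPM on glucose. It missed the rule with a ratio of 2.22, as did abaA (2.78), the chitinase gene ctcB (2.44) and mcoB (2.07).

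The label gives mycelium as the tissue, and these conidiophore and spore genes were read in it. All 8 on the list, medA and wetA included, summed to 655 and 583 CPM in 24 h starvation A and B, against 210 and 103 CPM in 6 h starvation, 158 and 111 CPM on straw and 120 and 109 CPM on glucose. Of the defining ones, brlA was at 0 on straw and brnA at 0 in 6 h starvation, and wetA had 4 and 1 reads at 24 h. No conidiation gene of the 7 tested was called between 6 h starvation and glucose by edgeR or DESeq2, with 1 at an unadjusted p under 0.05 in edgeR. That gene, mcoB, had an edgeR adjusted p of 0.00787 and missed the call through its ratio of mean RPKM. Of all tested genes 9.36% were called higher and 15% lower. On straw brlA and mcoB were called lower than in 6 h starvation (edgeR adjusted p 0.0243 and 0.00665), and DESeq2 also called 2 genes of the list. Of all tested genes 7.3% were called higher on straw and 5.13% lower. The brlA call rests on 8 and 1 reads in 6 h starvation A and B, and was not examined with single libraries left out. Among the 5 tested conidiation genes outside the set, 4 were called higher in 24 h starvation than on glucose, beside 12.8% of all tested genes. Between 24 h and 6 h starvation 0 were called by edgeR or DESeq2 (4 at an unadjusted p under 0.05 in edgeR). There 3.96% of all tested genes were higher and 3.11% lower. medA (ratio 1.12) and wetA (0.48) did not stand apart at 24 h. The part of conidiation genes in the levels of the other members was not tested.

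Members often lay near each other. RefSeq's gene order (ASM285v2), from another strain than the gene models counted and used only for which genes are neighbours, placed 152 members and 13903 other genes. Another member lay within 3 genes of 53 members (34.9%), and a member lay within 3 genes of 969 of the other genes (6.97%). With no gene between, the counts were 35 members (23%) and 258 other genes (1.86%). The members formed 8 stretches of 3 or more and 13 pairs. Within the 8 stretches lay 12 other genes, of which 3 had no read in any library and 3 had a ratio between 2 and 3. These shares are a description and were not tested.

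The most abundant member of all opened a stretch of 3 adjacent genes. An11g07040 had 9124 and 8903 CPM in 24 h starvation A and B, against 784 and 795 CPM in 6 h starvation, no read in both straw libraries and 3.15 and 0 CPM on glucose. Its mean level at 24 h was 261 ± 72.5 RPKM (SD, n = 2). Its neighbour An11g07050 had 406 and 340 CPM in 24 h starvation, against 72.1 and 64.2 CPM in 6 h starvation and no read on straw or glucose. An11g07060 had 119 and 34 CPM in 24 h starvation, 6.36 and 2.79 CPM in 6 h starvation and no read on straw or glucose. In all 3 genes both 24 h libraries lay above both 6 h starvation libraries, which the rule requires. The 6 h starvation libraries lay above straw, where no read was found. In 6 h starvation An11g07040 was at least 376-fold and An11g07050 at least 32.7-fold higher than on straw, with a floor of 3 reads over the straw libraries. The corresponding edgeR adjusted p-values were 1.26e-07 and 6.24e-06, those of 6 h starvation against glucose 1.1e-07 and 2.56e-06, and all 4 calls held without any single library. No annotation used here names these 3 genes.

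A longer stretch held 5 members and 1 gene outside the set. An11g02170 is a hydrolase of carbon-carbon bonds listed under phenylalanine catabolism, and An11g02200 is a dioxygenase. An11g02200 had 1910 and 1565 CPM in 24 h starvation A and B, against 191 and 64.2 CPM in 6 h starvation, 48.8 and 6.13 CPM on straw and 0 and 1.32 CPM on glucose. An11g02170 had 103 and 131 CPM in 24 h starvation, against 29.7 and 22.3 CPM in 6 h starvation, 8.87 and 6.13 CPM on straw and no read on glucose. Both genes stood in the same order of conditions. The 2 genes were higher in 6 h starvation than on glucose (edgeR adjusted p 2.91e-05 for An11g02200 and 0.000167 for An11g02170), An11g02170 by at least 12.3-fold with a floor of 3 reads, and An11g02200 by 190-fold with an exact 95% counting interval of 33.4 to 7561. The calls of both for straw against glucose were lost when single libraries were left out: the adjusted p of An11g02200 reached 0.16 and that of An11g02170 reached 0.0671. The neighbours An11g02150 (240 and 258 CPM in 24 h starvation A and B), An11g02160 (28.1 and 63.2 CPM) and An11g02190 (56.2 and 29.2 CPM) completed the members of the stretch. None of these 3 was called between the other conditions, although An11g02150 had an adjusted p of 0.00124 for 6 h starvation against glucose and missed the call through its ratio of mean RPKM. The gene between them, An11g02180, had a ratio of 2.28 and was named after its values were seen.

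The polyketide synthase gene An12g02730 headed a stretch of another pattern. Polyketide synthases build the carbon backbone of many fungal pigments and toxins. It had 312 and 277 CPM in 24 h starvation A and B, against 14.8 and 11.2 CPM in 6 h starvation, 0 and 1.02 CPM on straw and 45.6 and 54.1 CPM on glucose. Here glucose came next after 24 h starvation and straw was at the bottom. Straw was lower than glucose by a log2 fold change of −5.73 ± 0.741 (SE, edgeR adjusted p 7.9e-06), a call that held without any single library. The gene was also lower in 6 h starvation than on glucose (log2 fold change −1.81 ± 0.514, adjusted p 0.0108), the only member called so, but the adjusted p reached 0.0722 with a library left out.

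Its neighbours An12g02740 and An12g02750 were lowest on straw too. An12g02740 had 81.2 and 126 CPM in 24 h starvation A and B, against 14.8 and 2.79 CPM in 6 h starvation, 0 and 2.04 CPM on straw and 23.6 and 11.9 CPM on glucose. An12g02750 had 144 and 102 CPM in 24 h starvation, against 19.1 and 8.37 CPM in 6 h starvation, 0 and 1.02 CPM on straw and 7.87 and 18.5 CPM on glucose. Both were called lower on straw than on glucose (edgeR adjusted p 0.0118 and 0.00892), and both calls were lost without single libraries (adjusted p up to 0.08 and 0.108). An12g02770, with 68.7 and 63.2 CPM at 24 h, was not called between the other conditions. Its values of 4.44 and 4.08 CPM on straw overlapped those of 4.24 and 11.2 CPM in 6 h starvation. The gene between, An12g02760, was the one just outside the threshold, with 76 and 60 reads in 24 h starvation, 36 and 6 in 6 h starvation, 1 and 0 on straw and 30 and 33 on glucose. It too was lowest on straw, and it missed the rule through 6 h starvation A.

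**Figure D3:**
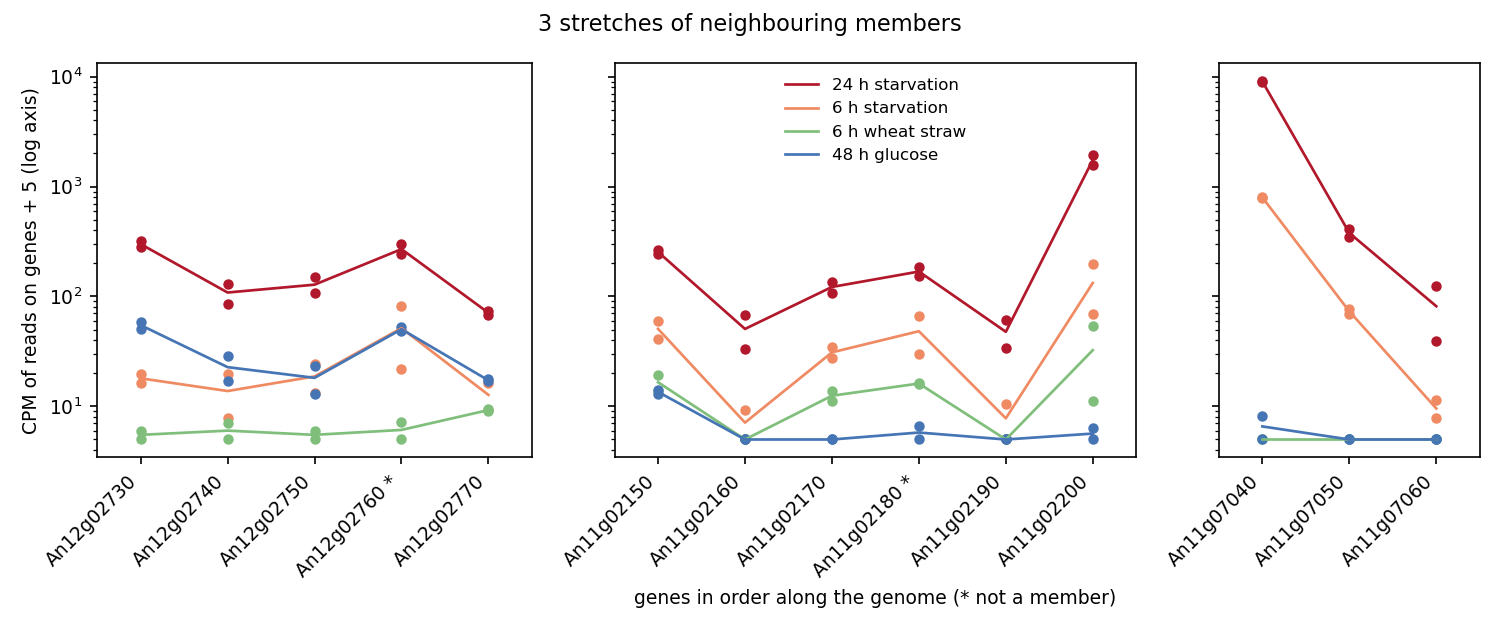
Levels along 3 stretches of neighbouring members, in gene order, as CPM of reads on genes plus 5 on a log axis; points are cultures, lines join the means of 2 cultures, and a star marks a gene outside the set. In the stretch of An12g02730 glucose lies above straw, whereas in those of An11g02150 and An11g07040 6 h starvation is second and glucose is low or unread.

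In 3 further stretches no member was called between the other conditions. Against glucose the edgeR adjusted p of An04g07200 was 0.0377 at 6 h starvation and 0.019 on straw, but its ratios of mean RPKM stayed under 3. An04g07200 had 2878 and 2041 CPM in 24 h starvation A and B and at most 51 CPM in any other library, with a ratio of 36.5, and the next gene, An04g07210, had 118 and 42 reads at 24 h and at most 7 elsewhere. An04g07230, beyond 1 gene with few reads, had 133 and 37 reads at 24 h and at most 19 elsewhere. All 3 were higher in culture A than in B in CPM. An03g02360, An03g02380 and An03g02400 alternated with 2 genes that had no read in any library. They had ratios of 23.1, 15 and 15.6, and An03g02360 reached 356 and 486 CPM in 24 h starvation, against 10.6 and 2.79 CPM in 6 h starvation, 4.44 and 0 CPM on straw and 9.44 and 6.59 CPM on glucose. An16g09020, the deacetylase gene An16g09040 and An16g09070 had ratios of 7.67, 16.6 and 21. An16g09020 was well read everywhere, with 3181 and 2260 CPM in 24 h starvation, against 290 and 134 CPM in 6 h starvation, 251 and 102 CPM on straw and 137 and 89.6 CPM on glucose.

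In the last 2 stretches neighbours differed in level. urhgB and brnA lay on either side of An14g05350, which had 184 and 384 CPM in 24 h starvation A and B. An14g05350 was higher in B, and urhgB and brnA were higher in A. No annotation used here gave An14g05350 a symbol, so it was not on the conidiation list. Whether it belongs to conidiation was not examined. An07g00030, An07g00070 and An07g00080 were all higher in culture B at 24 h, with 21.8 and 170 CPM, 321 and 700 CPM, and 74.9 and 199 CPM in A and B. An07g00070 was the only one of the 3 well read elsewhere, with 74.2 and 25.1 CPM in 6 h starvation, 6.66 and 3.06 CPM on straw and 48.8 and 39.6 CPM on glucose. It was called lower on straw than on glucose and than in 6 h starvation (edgeR adjusted p 0.00139 in both), but without straw B the adjusted p was 0.0561 and 0.069.

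Other members with a description were spread over enzymes and transport. An01g14980, an ortholog of extracellular proteins, and its neighbour An01g14990, a predicted heme-binding oxidoreductase, made up a pair. An01g14980 had 1092 and 437 CPM in 24 h starvation A and B and at most 19.5 CPM in any other library, and An01g14990 had 74.9 and 58.3 CPM and at most 2.79 CPM. The cultures of the first thus differed 2.5-fold at 24 h. An01g04530, a predicted phosphoric diester hydrolase of lipid metabolism, lay 3 genes along from the β-glucanase gene An01g04560 and had 140 and 180 CPM in 24 h starvation, against 23.3 and 11.2 CPM in 6 h starvation, 13.3 and 9.19 CPM on straw and 3.15 and 6.59 CPM on glucose. The 2 genes between had ratios of 0.553 and 0.774. An01g09820, a predicted NAD-binding oxidoreductase, had 90.5 and 117 CPM in 24 h starvation and at most 5.58 CPM elsewhere. The predicted potassium transporter gene An01g09300 had 378 and 107 CPM in 24 h starvation, against 25.4 and 14 CPM in 6 h starvation, 20 and 9.19 CPM on straw and 7.87 and 0 CPM on glucose.

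The following described members lay outside the rule for named genes, and were named after their values were seen. The predicted zinc-binding transcription factor gene An01g14540 had 30 and 25 reads in 24 h starvation A and B and at most 10 elsewhere, and its neighbour An01g14550, an ortholog of nitrilases, had 13 and 4 reads and at most 1. An01g13510, a predicted flavin-binding oxidoreductase, had 24 and 14 reads at 24 h and at most 4 elsewhere. An01g02030, a predicted acyl transferase with an oxidoreductase domain, had 272 and 190 CPM in 24 h starvation, against 31.8 and 27.9 CPM in 6 h starvation, 4.44 and 14.3 CPM on straw and 14.2 and 11.9 CPM on glucose. An01g00480, a predicted RNA-directed DNA polymerase of the kind that transposons carry, had 144 and 267 CPM in 24 h starvation, against 12.7 and 14 CPM in 6 h starvation, 6.66 and 4.08 CPM on straw and 26.7 and 14.5 CPM on glucose. Its call as lower on straw than on glucose (edgeR adjusted p 0.037) was lost without single libraries, with an adjusted p up to 0.252. In all, 25 members carried a symbol or description and 138 did not.

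The following 3 undescribed members were among the 8 of highest mean RPKM at 24 h, and these too were named after their values were seen. An08g09880 had 3227 and 2265 CPM (177 ± 87.4 RPKM, SD, n = 2) in 24 h starvation A and B, against 74.2 and 53 CPM in 6 h starvation, 0 and 1.02 CPM on straw and 14.2 and 11.9 CPM on glucose. An02g13750 had 5041 and 4014 CPM (35.7 ± 14.7 RPKM, SD, n = 2) in 24 h starvation, against 447 and 190 CPM in 6 h starvation, 118 and 160 CPM on straw and 190 and 198 CPM on glucose. An18g03380 had 446 and 442 CPM (23.9 ± 6.4 RPKM, SD, n = 2) in 24 h starvation, against 67.8 and 131 CPM in 6 h starvation, 26.6 and 30.6 CPM on straw and 1.57 and 1.32 CPM on glucose. Over all members, mean RPKM at 24 h had a median of 1.76 and ranged from 0.0509 to 261, and 29 members reached 10 RPKM or more. Much of the set was thus of low abundance even at its highest.

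Most members had similar levels in the 2 cultures of 24 h starvation. The rule favours this, because it uses the lower of the 2 values and drops genes high in 1 culture alone. Without culture A 281 genes met the rule and without B 274, in place of 163. The ratio of culture A to culture B in CPM had a median of 1.01, with 83 members higher in A, and 121 members lay within 2-fold. More than 4-fold apart were 6 members higher in B and 2 higher in A. The widest gap was at An05g01730, with 62.4 CPM in A and 2561 CPM in B at 24 h, against 0 and 8.37 CPM in 6 h starvation A and B, 0 and 1.02 CPM on straw and 0 and 5.27 CPM on glucose. Its 20 reads in A still exceeded every library of the other conditions, but its mean of 59.2 ± 78 RPKM (SD, n = 2) describes neither culture. An02g10890 (91 and 10 reads in A and B) and An08g01270 (59 and 6 reads) were the 2 members more than 4-fold higher in A. An04g09490 had 74 and 206 reads in A and B, a ratio of 0.231 in CPM, whereas its neighbour An04g09480 had 64 and 27 reads. These 5 were named after their values were seen.

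**Figure D4:**
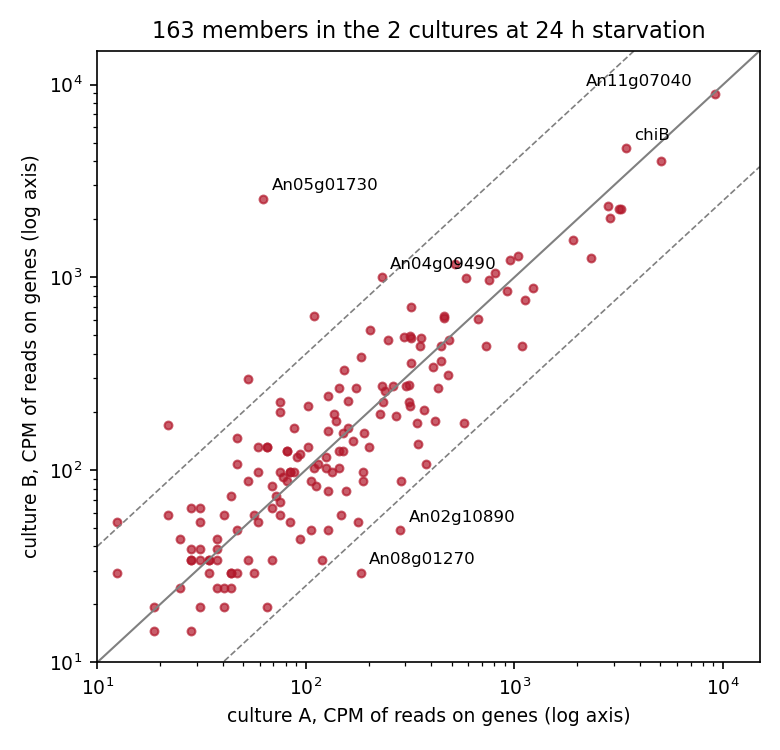
CPM of reads on genes of the 163 members in culture A (x axis) and culture B (y axis) of 24 h starvation, both on log axes; the solid line marks equality and the dashed lines 4-fold differences. Most points lie near the solid line, and An05g01730 (62.4 CPM in A, 2561 in B) lies farthest from it.

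The 3 comparisons that leave out the 24 h libraries were tested across all genes with edgeR's quasi-likelihood test. The fit took in all 4 conditions, so the 24 h libraries still helped to estimate the spread between cultures. A call needed an adjusted p (Benjamini-Hochberg) below 0.05 with mean RPKM differing at least 3-fold. RPKM divides by all reads of a file. Genes took 1.47 and 1.79% of them at 6 h starvation, 1.97 and 3.4% on straw and 2.97 and 2.99% on glucose (A and B). RPKM ratios of 6 h starvation to glucose were thereby lowered, and those of straw to 6 h starvation were raised. Counts with the 3-fold limit set on edgeR's fold change are therefore given too. Of the 163 members 155 passed the filter on low counts and 8 did not. Only 42 of the 155 reached the filter's level of 21.7 CPM in at least 2 of the other 6 libraries, so most entered through their 24 h reads and had few reads in the comparisons described next. The rule also capped all 6 libraries from above. Shares of all 6357 tested genes are given beside each count, and nothing was tested between them and the members.

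After 6 h of starvation 29 members (18.7%) were called higher than on glucose, against 9.36% of all genes, and 1 (0.645%) was called lower, against 15% of all genes. With the 3-fold limit on edgeR's fold change 38 members were higher and 1 lower, against 15% and 11.6% of all genes. The median log2 fold change over the 155 members was 1.03, against 0.00 over all genes. It was 1.16 over the 123 with more than 3 reads in either condition when an unread condition was set to its floor of 3 reads. The counts were 14 and 1 among 44 members with a filter and fit on these 2 conditions alone, where 8.83% of all genes were higher and 17% lower. Calls of 14 members, all higher, held without any single library, and 16 were lost without at least 1. Among the 14 were An11g07040, An11g07050, An11g02200 and An11g02170, described above, and the gene dhbD. It had 297 and 491 CPM in 24 h starvation A and B, against 91.2 and 69.8 CPM in 6 h starvation, 6.66 and 26.6 CPM on straw and 6.29 and 6.59 CPM on glucose, and its log2 fold change of 6 h starvation against glucose was 3.70 ± 0.595 (SE, adjusted p 8.51e-05). The undescribed members An18g03380 (log2 fold change 5.97 ± 0.642), An02g11180 (4.96 ± 0.577), An08g04120 (4.36 ± 0.511) and An11g00060 (3.08 ± 0.454) were also among them, with adjusted p-values of 1.14e-06 to 3.34e-05. The rule and the call together place the 6 h starvation level of these genes between those of 24 h starvation and glucose. Nothing is read from that order.

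On 6 h straw 9 members (5.81%) were called higher than on glucose, against 10.8% of all genes, and 13 (8.39%) lower, against 11.2%. With the 3-fold limit on edgeR's fold change 11 members were higher and 13 lower, against 12% and 10.3% of all genes. The median log2 fold change was −0.14, against 0.01 over all genes, and −0.07 over the 113 members with more than 3 reads in either condition when an unread condition was set to its floor. Calls of 7 members held without any single library. Higher were An18g03380 (log2 fold change 4.15 ± 0.702, SE, adjusted p 0.000155) and An07g03525 (4.17 ± 0.648, adjusted p 6.22e-05). Lower were the polyketide synthase gene An12g02730, An15g02410, Cscaffold10000098, An16g00600 and An08g09880. An15g02410 had 805 and 1055 CPM in 24 h starvation A and B, against 102 and 22.3 CPM in 6 h starvation, 2.22 and 1.02 CPM on straw and 126 and 123 CPM on glucose. An16g00600 had 247 and 471 CPM in 24 h starvation, against 14.8 and 33.5 CPM in 6 h starvation, 4.44 and 8.17 CPM on straw and 56.6 and 58 CPM on glucose. In all 5 genes both glucose libraries lay above both straw libraries. In 4 of them glucose also lay above 6 h starvation, and in An08g09880 6 h starvation lay above glucose. Without straw B, the deepest library, 8 members were higher and 6 lower, where 8.29% of all genes were higher and 8.09% lower.

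Set directly against each other, 6 h straw and 6 h starvation gave 0 members higher on straw, against 7.3% of all genes, and 23 (14.8%) lower, against 5.13%. DESeq2 called 0 higher as well, and 1 member was higher at an unadjusted p under 0.05 in edgeR. With the 3-fold limit on edgeR's fold change 0 members were higher and 31 lower, against 6.09% and 7.61% of all genes. The median log2 fold change was −1.57 over the members, against 0.01 over all genes, and −1.27 over the 111 members with more than 3 reads in either condition when an unread condition was set to its floor. Without straw B 9 members were lower, where the share of all genes called lower was 3.22%. Calls of 4 members held without any single library. Those 4 were An11g07040 and An11g07050, An08g09880 (log2 fold change −6.19 ± 0.759, SE, adjusted p 1e-05) and An15g02410 (−5.35 ± 0.824, adjusted p 0.00011).

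**Figure D5:**
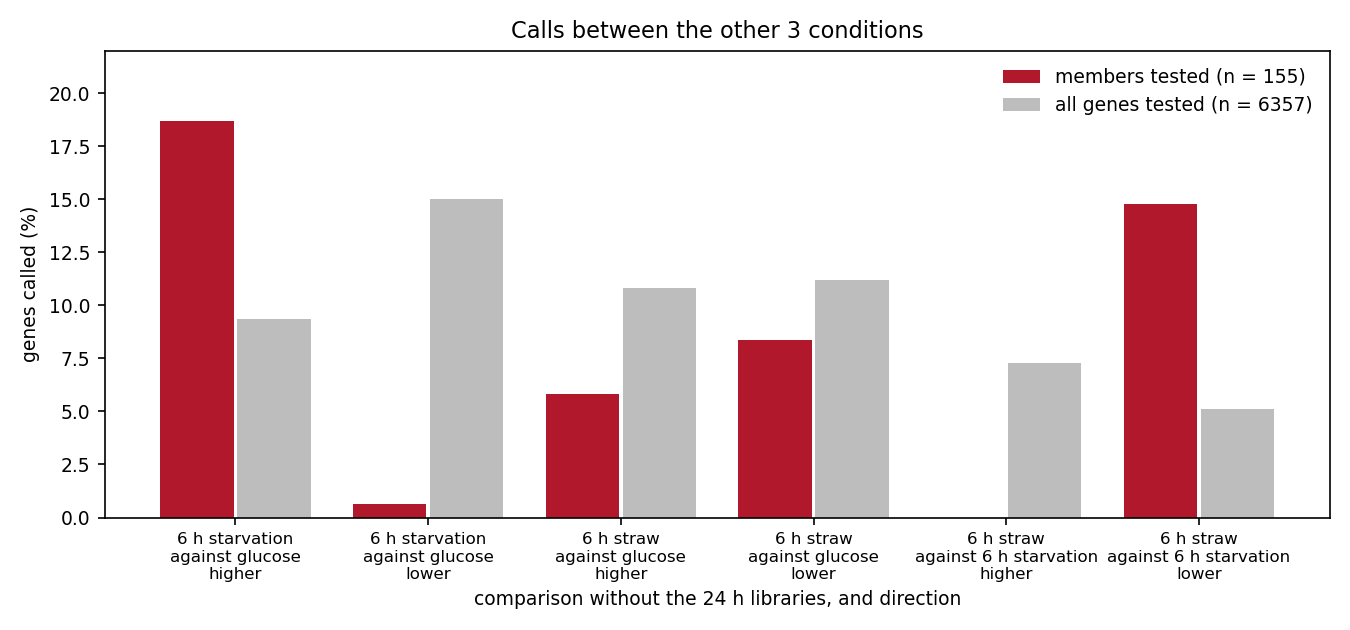
Percentage of genes called higher or lower (adjusted p below 0.05 with mean RPKM differing at least 3-fold) in the 3 comparisons that leave out the 24 h libraries, among the 155 members tested (red) and all 6357 genes tested (grey). Members were called higher at 6 h starvation than on glucose in 18.7%, against 9.36% of all genes, and lower on straw than at 6 h starvation in 14.8%, against 5.13%. With the 3-fold limit on edgeR's fold change these 2 shares of all genes were 15% and 7.61%, beside 38 and 31 of the 155 members.

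The comparisons with 24 h starvation used the libraries on which members were chosen, and their counts are given with nothing read from them. Against glucose 154 of the 155 tested members were called higher, beside 12.8% of all genes, and 0 lower, beside 17.4%. Against 6 h starvation 139 were called higher, beside 3.96% of all genes, and 0 lower, beside 3.11%.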

How the data were processed

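Total RNA of mycelium, depleted of rRNA, was sequenced on a SOLiD instrument. The deposited counts are forward reads per gene that the authors mapped with LifeScope and counted with HTSeq at a mapping quality of at least 20, on gene models of another strain than the RefSeq order used here. The deposited RPKM was computed by the authors from those counts, from gene length and all reads of a file. The 5 summary rows were left out here; they held 96.6 to 98.6% of each file. Counts were tested with edgeR 4.0.16 in R 4.3.3 (filterByExpr, TMM, quasi-likelihood fit over all 4 conditions, Benjamini-Hochberg adjustment over 6357 genes, 4 residual degrees of freedom), after tests on simulated data. The study grew duplicate cultures, so p-values measure only the spread between cultures of the same condition. That spread was estimated over all 4 conditions together, the 24 h libraries included, and partly shared across genes. edgeR stood in for the study's older DESeq. Intervals and floors cover counting error only. The SE of a log2 fold change was derived from the test, as its size divided by the square root of the quasi-likelihood F statistic. Symbols and descriptions came from RefSeq and the study's supplementary tables, 1 of them shortened, so planned lists by words of the description were not made; conidiation genes without a symbol there were left out. Members and lists were chosen with earlier results of these data known. Named were the 12 described members of highest RPKM and the 10 of largest ratio, members in lists or in stretches of 3 or more, and genes at the threshold. Alternatives were DESeq2 1.42.0, other scalings, filters and thresholds, a block and each library left out.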

Additional observations from a re-analysis of the deposited data

How the results depend on the processing

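The number of members depended on the constants of the rule: 254 with 1 added in place of 5, 323 with a ratio of 2, 75 with a ratio of 5, and 11 with CPM of all reads of a file, where the added 5 exceeds most values. With TMM-scaled sizes there were 117, with DESeq2 size factors 130, with 10 added 118 and with at least 10 reads in each 24 h library 127, all of them among the 163. Leaving out 1 library gave 166 to 281 members, the highest without 24 h starvation A (274 without B). TMM factors were 1.15 and 1.14 for 24 h starvation A and B and 0.901 to 1.01 elsewhere; without them the median log2 fold change of all genes against 6 h starvation was 0.23 in place of −0.07, with 344 genes higher and 168 lower in place of 252 and 198. Members called between 2 conditions fitted alone were 15 for 6 h starvation against glucose (30 in the fit over all conditions), 12 for straw against glucose (22) and 12 for straw against 6 h starvation (23); these fits tested 44, 30 and 37 members. On straw 4 were higher and 8 lower than on glucose, where 11.3% of all genes were higher and 12.9% lower, and 0 were higher and 12 lower than in 6 h starvation, where 7.84% were higher and 5.09% lower. Leaving out 1 library gave 14 to 26 members called for straw against glucose and 9 to 29 for straw against 6 h starvation, both lowest without straw B, and 86 to 135 for 24 h against 6 h starvation, the lowest without 24 h starvation A. With no gene between, 35 members in place of 53 had a member neighbour, and with up to 9 between, 61, both limits chosen after seeing the data. The replicate letter as a block gave 31, 26, 23, 154 and 135 members called in the 5 comparisons, in place of 30, 22, 23, 154 and 139; correlations of same-letter deviations ran from −0.0664 to 0.276, and the letters were not taken to pair cultures. Of 98 alternatives 13 moved a count by more than 1.5 times. Low reads set the limit: 36 members had fewer than 10 reads in a 24 h library.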
